A study of Saccharomyces cerevisiae with 25 samples.

Results

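Haploid-specific genes are the yeast genes that are transcribed in haploid cells of either mating type and shut off in a/alpha diploids. This account follows 6 of them, STE4, STE18, STE5, AXL1, HO and RME1, each read by 1 probe set among the 5656 genes that could be named and tested. The list holds known targets of diploid repression. The levels come from 25 Affymetrix arrays of Saccharomyces cerevisiae, 1 array per RNA preparation. The study compared null mutants of subunits of Ccr4-Not, a conserved complex that removes poly(A) tails from messenger RNA and also acts in transcription. The wild-type strain and the not2, not3, not4, not5, caf1, caf130 and ccr4 null mutants were sampled during exponential growth on rich glucose medium. The wild-type, not2, not4, caf1, caf130 and ccr4 strains were also collected 30 min after the glucose was used up. This gave 14 groups, 11 of 2 arrays and 3 of 1 array, the single ones being not4 and not5 in exponential phase and caf1 after depletion, for each of which the submitters discarded 1 array as problematic. No not5 culture was taken after depletion because that strain flocculates there. The labels name no mating type, ploidy, strain background or marker gene for any strain, and do not say how many clones stand behind each deletion.

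In a/alpha diploids the homeodomain proteins a1 and alpha2 bind together in front of the haploid-specific genes and repress them. Haploid cells lack one partner, so these genes stay on, and the cell can answer mating pheromone, switch mating type and hold back meiosis. STE4 and STE18 encode the beta and gamma subunits of the G protein coupled to the pheromone receptors, and STE5 encodes the scaffold on which the MAP kinases of the pathway assemble. AXL1 encodes the protease that trims the a-factor precursor and is also needed for the axial budding of haploids. HO encodes the endonuclease that starts mating-type switching and is transcribed late in G1, and RME1 encodes a repressor of the meiotic inducer gene IME1.

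All values are given on the log2 scale as deposited, so a difference of 1 is a doubling. A change is the difference of 2 group means ± its SE from 1 linear model over all 25 arrays (limma), with p-values adjusted over the 5656 genes by Benjamini-Hochberg and called at 0.05. The deleted gene was low in its own strain for 6 of the 7 deletions, but not always at the dim end of the scale. Of the readings of the 7 deleted genes, 0 of 14 in exponential ccr4 and 0 of 7 in not5 were below the lower quartile of their array. CDC36, the gene for Not2, was at 3.24 ± 0.32 (SD, n = 2) in the exponential not2 arrays, against 8.05 ± 0.05 in wild type. CAF130 was not low in the exponential arrays labelled caf130, at 6.26 ± 0.48 against 5.45 ± 0.22 in wild type, so those arrays are named here by their label only. TRP1, a tryptophan synthesis gene often used as a marker, averaged between 7.08 and 8.89 in the caf1 and ccr4 groups and 7.48 in the depletion group labelled caf130. It was at 4.56 ± 1.37 in the exponential group labelled caf130, and between 2.10 and 2.94 in the other groups.

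The not2 arrays stand apart in the genes that mark mating type. The mean level of the 7 a-specific genes (MFA1, MFA2, STE2, STE6, BAR1, AGA2 and ASG7), which mark a cells, ranged from 4.93 to 6.40 on the 4 arrays of not2, against 8.26 to 10.4 on the other 21. The mean of the 4 alpha-specific genes (MF(ALPHA)1, MF(ALPHA)2, STE3 and SAG1), which mark alpha cells, ranged from 3.83 to 4.61 on the not2 arrays, against 4.07 to 6.90 on the other 21, where the highest values were those of ccr4. The mean of the 6 haploid-specific genes was 3.86 to 5.12 in the not2 arrays and 5.60 to 6.90 in the rest. The same mean over 6 further targets of a1-alpha2 (GPA1, FUS3, FAR1, NEJ1, RDH54 and AMN1) was 4.72 to 5.29 against 5.86 to 7.24. HMRA1, the silent copy of the gene for a1, has the same coding sequence as the a1 gene of an a cell, so its probe set cannot tell them apart. The brightest of its 3 probe sets read 7.02 and 7.81 in exponential not2 against 6.93 and 7.17 in wild type, and 10.3 and 8.59 after depletion against 8.42 and 8.38. The difference of HMRA1 in not2 was called in neither condition, at 0.37 ± 0.46 (adjusted p = 0.592) and 1.04 ± 0.46 (adjusted p = 0.0962), and the other probe sets of that gene were dimmer. The alpha genes of MAT were not analysed here and the labels give no mating type, so loss of Not2 and a change of cell type cannot be told apart in the not2 strain.

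**Figure D1:**
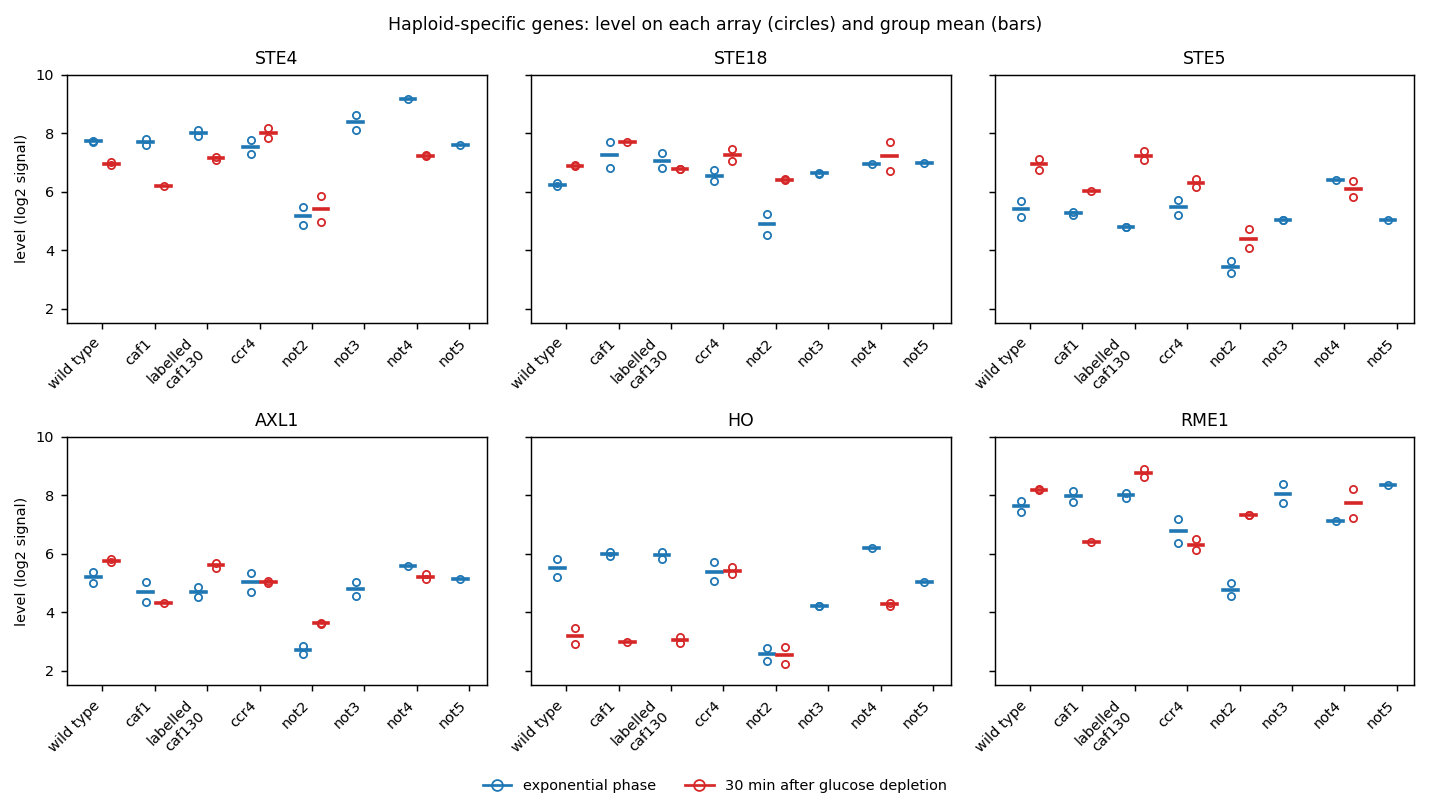
Level of each of the 6 haploid-specific genes on every array, as log2 signal on the vertical axis, by strain on the horizontal axis, with circles for arrays, bars for group means, blue for exponential phase and red for 30 min after glucose depletion. The not2 exponential group has the lowest mean for STE4, STE18, STE5, AXL1 and RME1, and HO is low both in not2 and in most depletion arrays.

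STE4, the G-beta gene, was read at 7.70 and 7.73 in the exponential wild-type arrays and at 6.90 and 7.01 after depletion. The exponential arrays of caf1 gave 7.58 and 7.80, those labelled caf130 gave 7.91 and 8.09, those of ccr4 gave 7.29 and 7.75, and those of not3 gave 8.11 and 8.62. The single arrays of not4 and not5 gave 9.16 and 7.59. STE4 was thus within 0.65 of its wild-type mean in each of these exponential groups except not4. The exponential not2 arrays gave 4.85 and 5.47, below every array of every other strain. After depletion the values were 6.19 in caf1, 7.08 and 7.19 in the arrays labelled caf130, 7.85 and 8.16 in ccr4, 4.95 and 5.86 in not2, and 7.21 and 7.25 in not4. The ccr4 arrays were the highest of the depletion arrays and the not2 arrays the lowest. Of the 13 steps between neighbours when the groups are ordered by mean, 7 were between groups whose arrays did not overlap. The other haploid-specific genes had between 5 and 7 such steps, so this count is not particular to STE4.

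STE18, the G-gamma gene, varied least outside not2 together with AXL1. It was read at 6.19 and 6.28 in exponential wild type and at 6.86 and 6.89 after depletion. The exponential readings were 6.81 and 7.68 in caf1, 6.80 and 7.31 in the arrays labelled caf130, 6.34 and 6.75 in ccr4, 6.60 and 6.65 in not3, 6.96 in not4 and 6.97 in not5. Only the not2 exponential arrays, at 4.53 and 5.23, were below the wild-type exponential arrays. After depletion STE18 was read at 7.68 in caf1, 6.77 and 6.78 in the arrays labelled caf130, 7.04 and 7.47 in ccr4, 6.40 and 6.42 in not2, and 6.71 and 7.70 in not4. The 21 arrays of the other strains lay within 1.51 of each other, a narrower range than for STE4, which spanned 2.98 over the same arrays.

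STE5, the scaffold gene, was read at 5.13 and 5.69 in exponential wild type and at 6.74 and 7.12 after depletion, with no overlap. The exponential readings were 5.19 and 5.31 in caf1, 4.77 and 4.80 in the arrays labelled caf130, 5.20 and 5.72 in ccr4, 5.01 and 5.04 in not3, 6.38 in not4 and 5.03 in not5. The exponential not2 arrays gave 3.23 and 3.62 and were below the lower quartile of their array. Depletion readings were 6.02 in caf1, 7.08 and 7.37 in the arrays labelled caf130, 6.15 and 6.43 in ccr4, 4.06 and 4.72 in not2, and 5.82 and 6.36 in not4. Every strain collected in both conditions except not4 had its depletion arrays above its exponential arrays, and the not2 arrays were lowest in both conditions.

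AXL1, the a-factor protease gene, was read at 5.0 and 5.39 in exponential wild type and at 5.71 and 5.81 after depletion. The exponential readings were 4.34 and 5.03 in caf1, 4.53 and 4.86 in the arrays labelled caf130, 4.69 and 5.36 in ccr4, 4.54 and 5.04 in not3, 5.58 in not4 and 5.13 in not5. In not2 the exponential arrays gave 2.56 and 2.85 and the depletion arrays 3.6 and 3.65. These 4 readings were below the lower quartile of their arrays, which lay between 3.51 and 3.85, and they were the lowest AXL1 readings of the study. The remaining depletion readings were 4.32 in caf1, 5.53 and 5.67 in the arrays labelled caf130, 5.01 and 5.06 in ccr4, and 5.13 and 5.30 in not4. In the order of group means, the neighbours from not4 after depletion down to not5 overlapped, as did those from ccr4 after depletion down to caf1 in exponential phase.

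HO, the switching endonuclease gene, was read at 5.21 and 5.82 in exponential wild type and at 2.91 and 3.44 after depletion. Its exponential readings were 5.92 and 6.04 in caf1, 5.83 and 6.07 in the arrays labelled caf130, 5.07 and 5.70 in ccr4, 4.20 and 4.21 in not3, 6.2 in not4 and 5.03 in not5. The exponential not2 arrays gave 2.35 and 2.79. After depletion HO was read at 2.97 in caf1, 2.94 and 3.14 in the arrays labelled caf130, 2.24 and 2.83 in not2, and 4.20 and 4.33 in not4. The depletion arrays of ccr4 gave 5.31 and 5.54, inside the range of the exponential ccr4 and wild-type arrays. In all, 9 of the 25 HO readings lay below the lower quartile of their array, namely the 4 of not2 and the depletion readings of wild type, of caf1 and of the arrays labelled caf130, and the order among those 9 is an order of dim readings.

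RME1, the meiotic repressor gene, was read at 7.44 and 7.82 in exponential wild type and at 8.17 and 8.22 after depletion. The exponential readings were 7.76 and 8.15 in caf1, 7.92 and 8.08 in the arrays labelled caf130, 6.38 and 7.19 in ccr4, 7.72 and 8.37 in not3, 7.11 in not4 and 8.35 in not5. The not2 exponential arrays gave 4.54 and 4.98, and no other array was below 6.12. After depletion RME1 was read at 6.39 in caf1, 8.62 and 8.89 in the arrays labelled caf130, 6.12 and 6.50 in ccr4, 7.32 and 7.34 in not2, and 7.24 and 8.21 in not4. After not2 in exponential phase, the lowest readings were those of caf1 and ccr4 after depletion together with 1 exponential ccr4 array, and these groups overlapped.

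The first question is how each deletion changed these genes during growth on glucose. In the not2 null strain all 6 haploid-specific genes fell against wild type, while 7.07% of all genes tested were called lower there. HO fell by 2.95 ± 0.30 (adjusted p = 1.79e-06). RME1 fell by 2.87 ± 0.34 (adjusted p = 1.49e-05), STE4 by 2.55 ± 0.31 (adjusted p = 1.57e-05) and AXL1 by 2.49 ± 0.30 (adjusted p = 1.49e-05). STE5 fell by 1.99 ± 0.31 (adjusted p = 2.38e-04) and STE18 by 1.36 ± 0.35 (adjusted p = 0.00977). The median change over the 6 genes was -2.52, against 0.15 over all genes. The arrays of not2 and wild type overlapped for none of the 6. That also held in exponential phase for not4 and for the arrays labelled caf130, so it is not particular to not2. The share of all genes without overlap was not counted. In RNA of whole cultures, fewer cells transcribing a gene and less transcript per cell cannot be told apart. Of the 12 readings of these genes in exponential not2, 6 were below the lower quartile of their array and 0 of 12 were in wild type, so the falls of HO, AXL1 and STE5 end near the dim end of the scale. The call for STE18 was lost without not2 replicate 1 (adjusted p = 0.0919) or without wild-type replicate 1 (adjusted p = 0.0564) or 2 (adjusted p = 0.0579).

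The deficit was also measured against the other NOT gene deletions, whose products sit with Not2 in the complex. All 6 genes were lower in not2 than in not3, where 8.86% of all genes were called lower, than in not4 (6.74%) and than in not5 (2.19%). Against not3 the differences ran from -1.61 ± 0.31 for STE5 (adjusted p = 0.00129) to -3.28 ± 0.34 for RME1 (adjusted p = 2.20e-06). Against the single not4 array they ran from -2.07 ± 0.43 for STE18 (adjusted p = 0.00353) to -4.0 ± 0.38 for STE4 (adjusted p = 1.13e-06). Against the single not5 array they ran from -1.61 ± 0.38 for STE5 (adjusted p = 0.022) to -3.58 ± 0.42 for RME1 (adjusted p = 2.57e-05). These comparisons share the 2 exponential not2 arrays, and the STE5 call against not5 was lost without not2 replicate 2 (adjusted p = 0.14) and without the arrays labelled caf130 (adjusted p = 0.053).

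In each of the other deletion strains, and in the arrays labelled caf130, at most 1 of the 6 genes was called in exponential phase. In not3, HO fell by 1.31 ± 0.30 (adjusted p = 0.0234), with 0.725% of all genes called lower. In not4, STE4 rose by 1.45 ± 0.38 (adjusted p = 0.0261), with 4.79% of all genes called higher, on 1 not4 array. No haploid-specific gene was called in caf1 (4.46% of all genes called in either direction), in ccr4 (6.77%, and 4.10% called higher), in not5 (5.23%) or in the arrays labelled caf130 (0.672%). At an unadjusted p under 0.05, 1 of the 6 was past the threshold in caf1, 1 in ccr4, 1 in the arrays labelled caf130 and 0 in not5. Among all 5656 genes, 1092 were past that threshold in caf1, 1337 in ccr4 and 843 in the arrays labelled caf130. The interval of STE18 in caf1, from 0.28 to 1.74 around 1.01, and that of RME1 in ccr4, from -1.56 to -0.12 around -0.84, leave room for sizeable changes. The HO call in not3 was lost without wild-type replicate 1 (adjusted p = 0.239) or either not3 array, and the STE4 call in not4 without either wild-type array (adjusted p up to 0.0906). Both were also lost without the arrays labelled caf130.

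**Figure D2:**
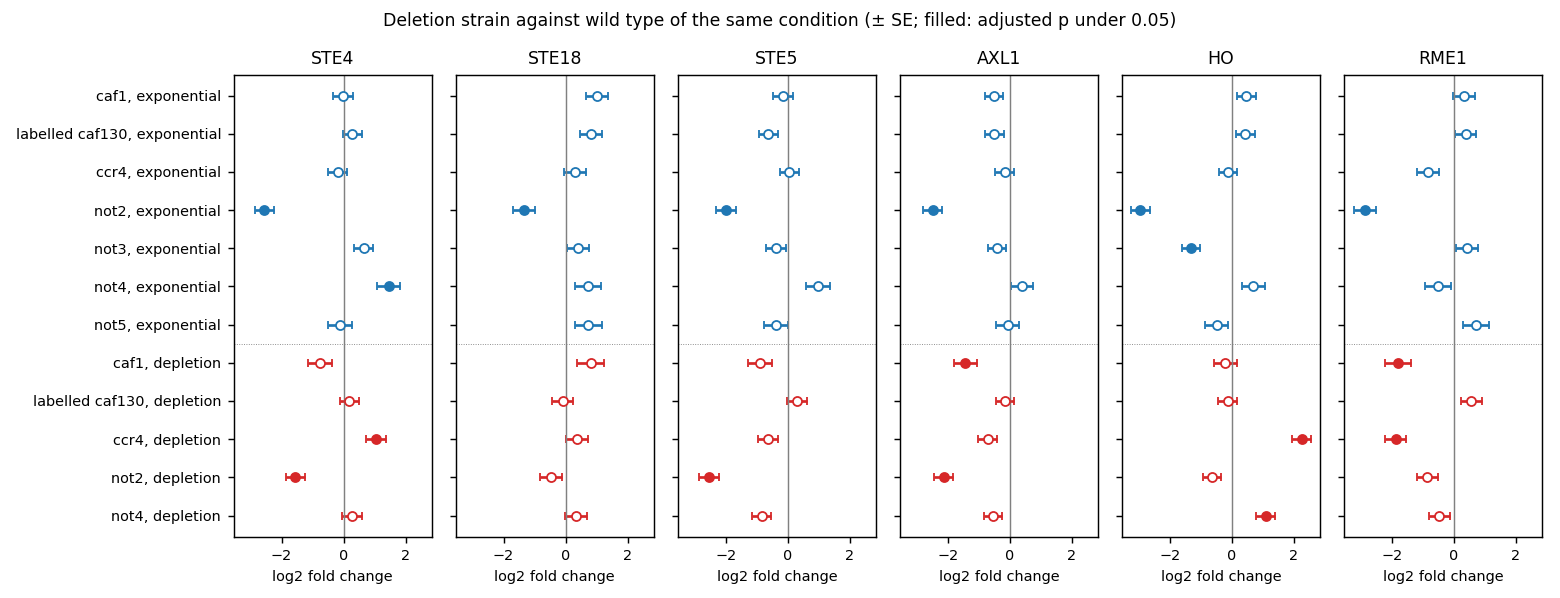
Change of each of the 6 genes in every deletion strain against wild type of the same condition, as log2 fold change ± SE on the horizontal axis, one row per comparison, exponential phase above the dotted line and depletion below it, filled where adjusted p was under 0.05. All 6 genes are filled on the left in exponential not2, and HO stands at 2.25 on the right in ccr4 after depletion.

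Lists of genes from the same regulation show how far the not2 pattern reached. Of the 6 other a1-alpha2 targets, 4 were lower in exponential not2, where 7.07% of all genes were called lower. FAR1, the inhibitor that arrests the cycle in response to pheromone, was read at 4.44 and 4.84 in not2 against 7.60 and 8.06 in wild type, a fall by 3.19 ± 0.39 (adjusted p = 1.52e-05). The MAP kinase gene FUS3 fell by 2.27 ± 0.43 (adjusted p = 0.00124), the recombination gene RDH54 by 1.97 ± 0.39 (adjusted p = 0.00161) and the G-alpha gene GPA1 by 1.44 ± 0.34 (adjusted p = 0.0062). NEJ1, needed for non-homologous end joining, changed by -0.67 ± 0.39 (adjusted p = 0.226). AMN1, an antagonist of mitotic exit, changed by 0.14 ± 0.29 (adjusted p = 0.772), and its arrays overlapped.

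All 7 a-specific genes fell as well, with a median of -4.13, against 7.07% of all genes called lower. The largest of these falls were those of BAR1, whose product breaks down alpha-factor, at -4.40 ± 0.32 (adjusted p = 1.59e-08), and of the genes for a-factor, MFA1 at -4.26 ± 0.28 and MFA2 at -4.19 ± 0.27 (adjusted p = 4.05e-09 for each). STE2, which encodes the receptor for alpha-factor, stood at -4.13 ± 0.28 (adjusted p = 5.50e-09). None of the 4 alpha-specific genes was called by limma, 0 passed an unadjusted p under 0.05, and their median was -0.49. Of all 5656 genes, 2050 passed the unadjusted threshold. STE3, the a-factor receptor gene, changed by -0.56 ± 0.28 (adjusted p = 0.152). In exponential wild type 4 of the 8 readings of the alpha-specific genes were already below the lower quartile of their array, so a fall there could hardly be measured. The 2 groups meet in the making of a-factor, which MFA1 and MFA2 encode, Axl1 trims and Ste6 exports. How far the cell-type markers account for the fall of the 6 genes was not tested.

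The remaining genes of the mating pathway did not move as a block in not2. Of 13 pathway genes, 2 were lower and 2 higher in exponential phase, with a median of -0.28. Of all genes, 15.5% were called higher there and 7.07% lower. SST2, the regulator that desensitises the G protein, fell by 2.15 ± 0.31 (adjusted p = 1.13e-04) and the transcription factor gene STE12 by 1.64 ± 0.35 (adjusted p = 0.0026). STE50 rose by 1.51 ± 0.29 (adjusted p = 0.00121) and the kinase gene STE11, whose product binds Ste5, by 1.15 ± 0.28 (adjusted p = 0.00689). Among 6 genes of a-factor maturation, STE14, the methyltransferase gene, was the 1 called, a fall by 1.11 ± 0.28 (adjusted p = 0.00849). None of 10 genes for axial and bud-site selection was called by limma, and the list median was -0.55. At an unadjusted p under 0.05, 4 of the 10 passed, as did 2050 of all 5656 genes. Among 10 regulators of HO the histone deacetylase gene RPD3 alone was called, a rise by 1.20 ± 0.28 (adjusted p = 0.00548), a smaller share than among all genes. The calls of STE12, STE14 and RPD3 were each lost without 1 of the not2 arrays and without wild-type replicate 1, and that of STE11 without wild-type replicate 2 (adjusted p up to 0.0934).

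**Figure D3:**
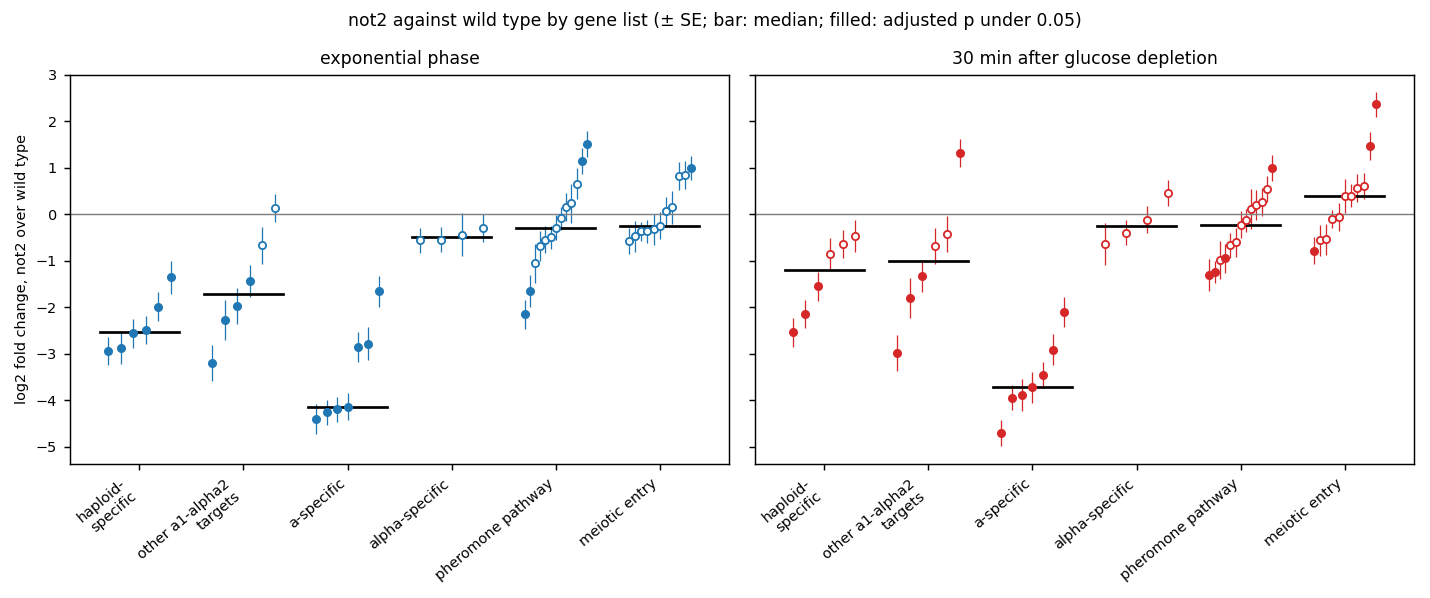
Change in not2 against wild type of each gene in 6 lists, as log2 fold change ± SE on the vertical axis, left panel exponential phase and right panel 30 min after depletion, black bars for list medians and filled circles where adjusted p was under 0.05. The medians of the haploid-specific genes were -2.52 and -1.21, and those of the a-specific genes -4.13 and -3.72.

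The second question is how the genes behaved once glucose ran out. In wild type HO fell by 2.34 ± 0.30 (adjusted p = 4.01e-06), with 18.7% of all genes called lower, and STE5 rose by 1.52 ± 0.31 (adjusted p = 6.15e-04), with 20.3% called higher. STE4 changed by -0.76 ± 0.31 (adjusted p = 0.0605), STE18 by 0.64 ± 0.35 (adjusted p = 0.16), and AXL1 and RME1 by 0.56 each. The 6 genes thus did not go one way, and their median was 0.56 against 0.02 over all genes. Of 10 regulators of HO, 2 were called lower in wild type, a share near that of all genes. SWI5, the zinc-finger activator of HO, fell by 1.52 ± 0.32 (adjusted p = 6.54e-04) and ASH1, the repressor that keeps HO off in daughter cells, by 1.56 ± 0.30 (adjusted p = 3.47e-04). Of the 10 axial and bud-site genes, 6 fell and 1 rose. RAX1 fell by 2.73 ± 0.41 (adjusted p = 2.57e-05) and BUD4 by 2.16 ± 0.39 (adjusted p = 1.77e-04).

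The fall of HO was measured in 4 of the 6 strains collected in both conditions. It fell by 3.02 ± 0.37 in caf1 (adjusted p = 8.26e-06), by 2.91 ± 0.30 in the arrays labelled caf130 (adjusted p = 1.68e-07) and by 1.94 ± 0.37 in not4 (adjusted p = 6.76e-04). The shares of all genes called lower in these strains were 13.9%, 26.9% and 18.3%. In ccr4 the change of HO was 0.04 ± 0.30 (adjusted p = 0.935), with an interval from -0.59 to 0.66, and its arrays of the 2 conditions overlapped. In not2, where HO was already at 2.57 ± 0.31 (SD, n = 2) before depletion, the change was -0.03 ± 0.30 (adjusted p = 0.938). SWI5, given for comparison, fell by 1.23 ± 0.32 (adjusted p = 0.00303) in the arrays labelled caf130 and rose by 1.81 ± 0.39 (adjusted p = 0.00163) in not4. It changed by 0.50 ± 0.39 (adjusted p = 0.351) in caf1 and by 0.16 ± 0.32 (adjusted p = 0.719) in ccr4. In not4, with a single exponential array, HO thus fell while SWI5 rose. Whether the level of SWI5 bears on that of HO was not tested.

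STE5 and STE18 were called higher in some strains and STE4 lower in others. STE5 rose in the arrays labelled caf130 by 2.44 ± 0.31 (adjusted p = 2.32e-06), where 23.2% of all genes were called higher. It rose by 0.97 ± 0.31 (adjusted p = 0.0156) in not2, where 19.3% were called higher, and by 0.83 ± 0.31 (adjusted p = 0.0425) in ccr4, where 23.7% were. In not4 the change of STE5 was -0.29 ± 0.38 (adjusted p = 0.6). STE4 fell by 1.94 ± 0.38 in not4 (adjusted p = 8.75e-04), by 1.5 ± 0.38 in caf1 (adjusted p = 0.00563) and by 0.86 ± 0.31 in the arrays labelled caf130 (adjusted p = 0.0268). Its change in ccr4 was 0.48 ± 0.31 (adjusted p = 0.232). STE18 was called in not2, where it rose by 1.53 ± 0.35 (adjusted p = 0.00134). The ccr4 call of STE5 was lost without ccr4 exponential replicate 1 (adjusted p = 0.299) or either ccr4 depletion array, the not2 call of STE5 without not2 exponential replicate 2 or depletion replicate 1, and the STE4 call in the arrays labelled caf130 without any 1 of its 4 arrays (adjusted p up to 0.136).

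RME1 and AXL1 moved in fewer strains. RME1 rose by 2.57 ± 0.34 in not2 (adjusted p = 5.59e-06), from 4.76 to 7.33, and fell by 1.56 ± 0.42 in caf1 (adjusted p = 0.00852), from 7.96 to 6.39. AXL1 rose by 0.92 ± 0.30 in not2 (adjusted p = 0.0164) and by 0.90 ± 0.30 in the arrays labelled caf130 (adjusted p = 0.0162). The not2 arrays thus had 4 of the 6 genes higher after depletion and 0 lower, while 19.3% of all genes were called higher. In the same comparison IME1, the gene that Rme1 represses in haploids, rose by 1.20 ± 0.28 (adjusted p = 0.00145), and IME4, an RNA methyltransferase gene needed for meiosis, rose by 1.77 ± 0.26 (adjusted p = 1.66e-05), 2 of the 4 called among 11 genes of meiotic entry. The RME1 call in caf1 was lost without caf1 exponential replicate 2 (adjusted p = 0.0502). The AXL1 call in not2 was lost without not2 exponential replicate 2 (adjusted p = 0.113) and after quantile normalization (adjusted p = 0.0501), and that in the arrays labelled caf130 without 3 of its 4 arrays (adjusted p up to 0.131).

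**Figure D4:**
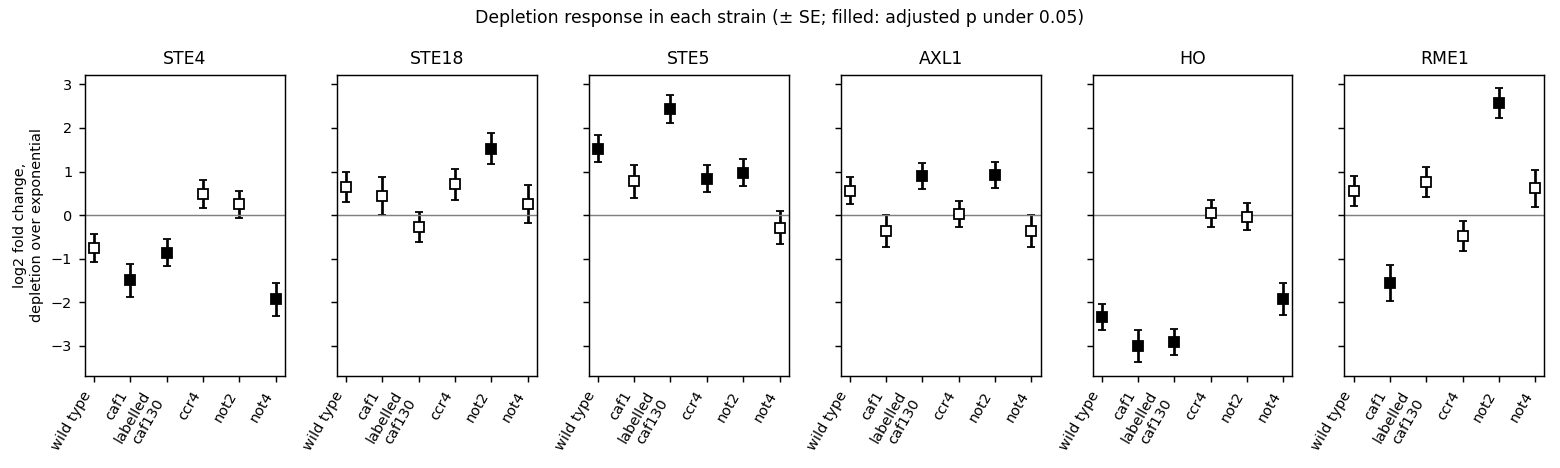
Change of each of the 6 genes on glucose depletion within each strain, as log2 fold change ± SE on the vertical axis, filled where adjusted p was under 0.05. HO lies between -1.94 and -3.02 in wild type, caf1, the arrays labelled caf130 and not4, and at 0.04 and -0.03 in ccr4 and not2, while RME1 is at 2.57 in not2 and at -1.56 in caf1.

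Whether a strain responded differently from wild type was tested directly as the difference of the 2 responses. For HO this difference was 2.37 ± 0.43 in ccr4 (adjusted p = 0.00135), where 11.6% of all genes had a difference called higher, and 2.30 ± 0.43 in not2 (adjusted p = 0.00268), where 2.39% did. For RME1 it was 2.0 ± 0.49 in not2 (adjusted p = 0.0178) and -2.13 ± 0.55 in caf1 (adjusted p = 0.0417), where 1.56% of all genes had a difference called lower. For STE5 it was -1.81 ± 0.49 in not4 (adjusted p = 0.0424), again with 2.39% called lower. In the arrays labelled caf130 0 of the 6 differed from wild type by limma and 0 passed an unadjusted p under 0.05, with 0.0354% of all genes called in either direction. Of all 5656 genes there, 592 passed the unadjusted threshold. STE5 came closest there at 0.92 ± 0.44 (adjusted p = 0.477). All 5 strains are set against the same 4 wild-type arrays. The HO call in ccr4 held with any 1 of its arrays left out. The difference of HO in not2 rests on readings that were below the lower quartile of the array in both conditions of that strain. The RME1 call in not2 was lost without any 1 of 4 arrays (adjusted p up to 0.0766). The RME1 call in caf1 was lost without any 1 of the 6 arrays that could be left out (adjusted p up to 0.147), and the STE5 call in not4 without any 1 of 5 (adjusted p up to 0.156).

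Set against wild type after depletion, ccr4 had the highest HO level of any strain. HO was higher there by 2.25 ± 0.30 (adjusted p = 4.38e-05), both HO readings of wild type being below the lower quartile of their array, and STE4 by 1.05 ± 0.31 (adjusted p = 0.0183), with 15.2% of all genes called higher. RME1 was lower by 1.88 ± 0.34 (adjusted p = 6.75e-04), with 11.8% of all genes called lower. AXL1 changed by -0.72 ± 0.30 (adjusted p = 0.0797) and STE5 by -0.64 ± 0.31 (adjusted p = 0.14). Among the 10 regulators of HO, SWI6, a subunit of the late G1 activator SBF, was higher by 1.22 ± 0.30 (adjusted p = 0.00563) and the histone acetyltransferase gene GCN5 by 0.99 ± 0.30 (adjusted p = 0.018). Of the 6 other a1-alpha2 targets, RDH54, FUS3 and AMN1 were higher by 1.30 ± 0.39, 1.25 ± 0.43 and 1.12 ± 0.29. The STE4 call was lost without ccr4 replicate 2 (adjusted p = 0.161) or either wild-type array. The calls of AMN1, RDH54, FUS3 and GCN5 were each lost without any 1 of at least 3 of the 4 arrays, and that of SWI6 without ccr4 replicate 2 (adjusted p = 0.0639).

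In not2 after depletion 3 of the 6 genes were lower than in wild type, where 14% of all genes were called lower. STE5 was lower by 2.54 ± 0.31 (adjusted p = 8.59e-06), AXL1 by 2.14 ± 0.30 (adjusted p = 3.27e-05) and STE4 by 1.55 ± 0.31 (adjusted p = 0.00108). RME1 differed by -0.86 ± 0.34 (adjusted p = 0.0681), HO by -0.65 ± 0.30 (adjusted p = 0.116) and STE18 by -0.47 ± 0.35 (adjusted p = 0.341). HO was dim in both strains here. FAR1 was lower by 2.99 ± 0.39 (adjusted p = 1.52e-05), FUS3 by 1.80 ± 0.43 (adjusted p = 0.00426) and GPA1 by 1.33 ± 0.34 (adjusted p = 0.00696), while AMN1 was higher by 1.32 ± 0.29 (adjusted p = 0.00238). Without not2 replicate 1 the FUS3 and GPA1 calls were lost (adjusted p = 0.0955 and 0.0528). All 7 a-specific genes were lower, with a median of -3.72, and 0 of the 4 alpha-specific genes were called by limma or passed an unadjusted p under 0.05. Of all 5656 genes, 2221 passed the unadjusted threshold. Against not4 after depletion, STE4, HO, STE5 and AXL1 were lower in not2, by 1.82, 1.73, 1.70 and 1.59 (adjusted p between 3.80e-04 and 8.29e-04), with 10.8% of all genes called lower.

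The other strains differed less from wild type after depletion. On the single caf1 array RME1 was lower by 1.80 ± 0.42 (adjusted p = 0.0109) and AXL1 by 1.44 ± 0.37 (adjusted p = 0.0163), with 5.36% of all genes called lower. In not4 HO was higher by 1.09 ± 0.30 (adjusted p = 0.0224), with 5.92% called higher. In the arrays labelled caf130, 0 of the 6 were called by limma and 0 passed an unadjusted p under 0.05, and the 6 changes lay between -0.16 and 0.56. Of all genes there, 0.0354% were called in either direction and 253 of 5656 passed the unadjusted threshold. Both caf1 calls were lost without wild-type replicate 2 (adjusted p = 0.104 for AXL1 and 0.0792 for RME1), and the HO call in not4 without wild-type replicate 1 (adjusted p = 0.236) or not4 replicate 1 (adjusted p = 0.0659).

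The deadenylase subunits Ccr4 and Caf1 act as a pair, so their deletions were also set side by side. In exponential phase 0 of the 6 genes were called between ccr4 and caf1 by limma, with 5.43% of all genes called in either direction. At an unadjusted p under 0.05, 1 of the 6 passed, as did 1515 of all 5656 genes. RME1 came closest at -1.17 ± 0.34 (adjusted p = 0.051). After depletion HO was higher in ccr4 by 2.46 ± 0.37 (adjusted p = 6.05e-04) and STE4 by 1.81 ± 0.38 (adjusted p = 0.00479), with 7.99% of all genes called higher. RME1, low in both, differed by -0.08 ± 0.42 (interval -0.96 to 0.80). Between ccr4 and not2 after depletion, HO was higher in ccr4 by 2.89 ± 0.30, STE4 by 2.60 ± 0.31, STE5 by 1.90 ± 0.31 and AXL1 by 1.42 ± 0.30, with 24.1% of all genes called higher. RME1 was lower in ccr4 by 1.02 ± 0.34 (adjusted p = 0.021), with 20.4% called lower, a call lost without ccr4 replicate 2 (adjusted p = 0.159) or either not2 array.

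Among themselves the 6 genes did not follow 1 pattern once not2 was set aside. Over the 12 remaining group means the 15 pairs had correlations between -0.56 (STE5 with HO) and 0.74 (STE4 with HO), with a median of -0.12, and 6 of the 15 were above 0. With not2 included, the STE4 and HO pair stood at 0.83 and the STE5 and AXL1 pair at 0.84. These are descriptions over group means that share the same 2 conditions.

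The genes whose group means ran most like those of each member were named by the highest Pearson correlation over 14 groups. For STE4 these were EXG2 (0.91), FAR1 (0.91) and IPP1 (0.90), and for STE5 BIO4 (0.93), CPR1 (0.90) and VBA2 (0.90). AXL1 was followed by MSB4 (0.91), GPI2 (0.88) and the a-factor gene MFA2 (0.88). HO was followed by the ribosomal protein genes RPL37B (0.87) and RPS29B (0.87) and by DSF2 (0.87). STE18 had ECM8 (0.77), CDC36 (0.75) and FSH1 (0.75), where CDC36 is the gene deleted in not2. RME1 had ICS2 (0.78), YCR099C (0.78) and the a-factor transporter gene STE6 (0.76). Over the 12 groups without not2 the MFA2 value fell to 0.35 and the CDC36 value to 0.35, while RPL37B with HO stood at 0.88 and ICS2 with RME1 at 0.86.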

How the data were processed

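The authors deposited 1 table of log2 signal values, 9275 probe sets by 25 arrays. Per the labels, acid phenol was used to extract total RNA, which carried a biotin label and went through standard Affymetrix handling. What software and normalization made the table, and which log base, is not given in the sources used here. Base 2 was inferred from the values (1.36 to 13.94, array medians 5.20 to 5.37). They were used as deposited, with no pseudocount. The 6504 probe sets with 1 gene symbol were kept (328 had several, 2443 none), named through the platform annotation updated to R64, with the brightest set for 315 genes with several.

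Groups come from the sample titles. A group-means model was fitted with limma 3.58.1 in R 4.3.3 (eBayes with trend, 11 residual and 9.03 prior degrees of freedom) to 30 comparisons. For groups of 1 array the spread is that of the other groups. P-values measure the spread between independent preparations, and the number of arrays limits the precision. The fit was tested on simulated data. Tables were built in Python 3.11.15 (numpy 2.4.6, pandas 2.3.3) and drawn with matplotlib 3.10.9.

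The 6 genes and the 13 gene lists (98 of 104 genes measured) were chosen with earlier results of these data known. The genes named are the 6, in each list up to 4 called genes with the largest change plus all other a1-alpha2 targets, the 3 genes most alike to each, the deleted genes and TRP1. IME1, and regulators of HO followed across strains, were named after their values were seen. Sequences were not used here, and 1 of the lists is not reported here.

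Alternatives were quantile normalization, dim genes left out, no intensity trend, arrays of 1 condition, replicate block, mean of a gene's probe sets, arrays labelled caf130 or not2 left out, and each array left out.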

Additional observations from a re-analysis of the deposited data

Results flagged for a closer look

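The depletion response of 5 gene and strain pairs differed from that of wild type in the test of the difference itself. HO differed by 2.37 in ccr4 (adjusted p = 0.00135) and by 2.30 in not2 (adjusted p = 0.00268). In ccr4 HO stayed at its exponential level, whereas in not2 its readings were below the lower quartile of the array in both conditions. RME1 differed by 2.0 in not2 (adjusted p = 0.0178), where it rose from 4.76 to 7.33, and by -2.13 in caf1 (adjusted p = 0.0417), where it fell on 1 depletion array. STE5 differed by -1.81 in not4 (adjusted p = 0.0424), with 1 exponential array. On leaving out 1 array, the HO difference stayed between 2.06 and 2.69 in ccr4, called each time, and between 2.0 and 2.60 in not2, where the readings were dim throughout.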

How the results depend on the processing

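Of 180 tests of the 6 genes, 67 were called. Of these, 49 were called under every alternative that could be run for them. On leaving out 1 array 18 were lost, 7 also under another setting, and 0 reversed. Calls of AXL1 and HO could not be tested with dim genes left out, which dropped both genes. The only array of a group could not be left out either. The numbers called per comparison moved past 1.5 times as follows. Leaving out dim genes dropped AXL1 and HO (mean below 4.81), which gave 0 for not3 in exponential phase, 0 for not4 against wild type after depletion, 0 for the ccr4 response difference, 1 for caf1 against wild type after depletion, for depletion in wild type and in not4, for the not2 response difference and for ccr4 against caf1 after depletion, 2 for not2 against not4 after depletion and for depletion in the arrays labelled caf130, and 3 for ccr4 against not2. It gave 1 for ccr4 against caf1 in exponential phase, as did no intensity trend, arrays of the condition only and leaving out not2 (RME1). No intensity trend and leaving out not2 gave 2 for the ccr4 response difference, and leaving out not2 gave 2 for not4 against wild type after depletion. Quantile normalization gave 0 for depletion in ccr4 and for the not4 response difference. Leaving out the arrays labelled caf130 gave 0 for not3 and not4 in exponential phase, for depletion in ccr4 and for the caf1 and not4 response differences.

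Leaving out 1 array gave 0 to 1 for caf1, not3 and not4 in exponential phase, for ccr4 against caf1 in exponential phase, for depletion in ccr4 and for the caf1 and not4 response differences. It gave 0 to 2 for caf1 and not4 against wild type after depletion, 1 to 2 for the ccr4 and not2 response differences, and 2 to 4 for depletion in not2 and in the arrays labelled caf130. RME1 in the caf1 response difference was lost without any 1 of 6 arrays (adjusted p up to 0.147) and STE5 in the not4 response difference without 5 of 6 (adjusted p up to 0.156).

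Same-numbered arrays did not consistently deviate together (55 pairs of groups, correlations -0.55 to 0.47, median -0.02). Of these correlations, 14 were above 0.1 and 20 below minus 0.1, so the numbers do not pair the samples consistently. Whether arrays with different numbers shared deviations was not tested. With the replicate block, 0 were called for depletion in ccr4 and for the caf1 and not4 response differences, and 3 of the 67 calls were lost. Outside the 6 genes, AXL2 on depletion in ccr4 was at 1.21 (adjusted p = 0.0194) on its brightest probe set and at -0.34 (adjusted p = 0.535) on the mean of its probe sets. Quantile normalization moved the median of all genes by less than 0.1 in every comparison. The causes of these moves were not tested, apart from the genes and arrays left out. Dim readings limit HO and AXL1 in not2 and HO after depletion.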

Other observations

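Genes of neighbouring programmes were also measured in not2 after depletion. ASH1, the repressor of HO in daughter cells, was higher than in wild type by 3.01 ± 0.30 (adjusted p = 1.15e-06), 1 of 3 regulators of HO called higher of 10, while 794 of 5656 genes were called higher. IME4 was higher by 2.37 ± 0.26 (adjusted p = 2.59e-06) and the kinase gene RIM11 by 1.47 ± 0.30 (adjusted p = 0.00118). STE14, which methylates a-factor, was lower by 2.98 ± 0.28 (adjusted p = 5.47e-07).

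In ccr4 in exponential phase 5 of the 7 a-specific genes were higher than in wild type, with a list median of 1.71, and 3 of the 4 alpha-specific genes were, with a median of 2.15, while 232 of 5656 genes (4.10%) were called higher. There 0 of the 6 haploid-specific genes were called by limma and 1 passed an unadjusted p under 0.05, as did 1337 of all 5656 genes. After depletion 1 of the 4 alpha-specific genes was called higher in ccr4, with a list median of 0.70. This was MF(ALPHA)2, an alpha-factor gene, by 2.16 ± 0.27. Of the 7 a-specific genes 1 was called higher and 1 lower, with a list median of 0.35. The lower one was STE6, by 2.16 ± 0.33 (adjusted p = 1.57e-04). Of all genes, 15.2% were called higher in that comparison and 11.8% lower.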
